A study of Mus musculus with 6 samples.

Results

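The Toll-like receptor and NF-kB signalling genes examined here comprised 33 listed genes, of which 32 had a row among the 12327 genes of the deposited expression table. They were matched by Ensembl identifier, without the version, through GENCODE mouse M21 (assembly GRCm38) and sorted by role into 10 receptors and co-receptors, 11 adaptors and kinases, 5 NF-kB subunits and 6 inhibitors. Tlr8 was not analysed here. BV2 is an immortalised line of mouse microglia, the macrophages of the brain, and was profiled in 3 knockdown and 3 control libraries. The knockdown cells (GCH1-KD) had been infected for 48 hours with an adenovirus made to silence GCH1 (Ad-shGCH1). GCH1 is GTP cyclohydrolase I, which begins the synthesis of the cofactor tetrahydrobiopterin. The control cells are a negative control (Ad-NC) in the labels and wild type in the series title and design text, so whether they also received a virus is unclear. Both groups came from 1 subline grown in high-glucose medium with serum, with no inflammatory stimulus named in the labels, and no label states whether replicate libraries derive from independent cultures. The p-values below may therefore reflect technical spread alone.

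Toll-like receptors bind microbial molecules at the cell surface or inside endosomes. They signal through the adaptors MyD88 and TRIF. MyD88 recruits IRAK kinases and, through them, the ubiquitin ligase TRAF6, which lead to the IKK complex. IKK marks the inhibitor IkB for destruction, and the freed NF-kB dimers enter the nucleus and switch on inflammatory genes, including genes for their own inhibitors. In microglia this route is a main path by which bacterial products and debris of damaged cells start cytokine production.

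None of the 32 genes passed the test between knockdown and control. The test was limma on log2(FPKM + 1), where FPKM is the fragment count of a gene scaled by transcript length and library size, with Benjamini-Hochberg (BH) adjustment over the 12222 genes tested and a threshold of 0.05. Over all genes 0.0818% were called, so a count of 0 in 32 genes lies near that background. At an unadjusted p under 0.05 stood 1 of the 32 (3.12%), Irak4, against 11.3% of all genes, and 6.47% of all genes in its direction, higher in knockdown. That count was 0 without control library 1, 2 without control library 2 or knockdown library 3, and 3 without control library 3. In 7 of the 32 (21.9%) the libraries of the 2 groups did not overlap, against 18.4% of all genes tested. Of these, 5 were higher in knockdown cells (9.99% of all genes were) and 2 lower (8.36% of all genes were). Most genes of the route were measured tightly. For 30 of the 32 the 95% interval on log2(FPKM + 1) lay within a 1.5-fold change in either direction, as for 95.2% of all genes. The exceptions on that scale were Tlr4 and Tlr7, whose control libraries disagreed with each other. The lower ends of Tab2 (-0.571) and Ikbkg (-0.515) lay just inside that bound, which is 0.585 in log2. The count was not repeated with less than 1 FPKM added, so it holds for this scale only. All fold changes are knockdown over control on the scale of log2(FPKM + 1), which understates those of weakly expressed genes.

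**Figure D1:**
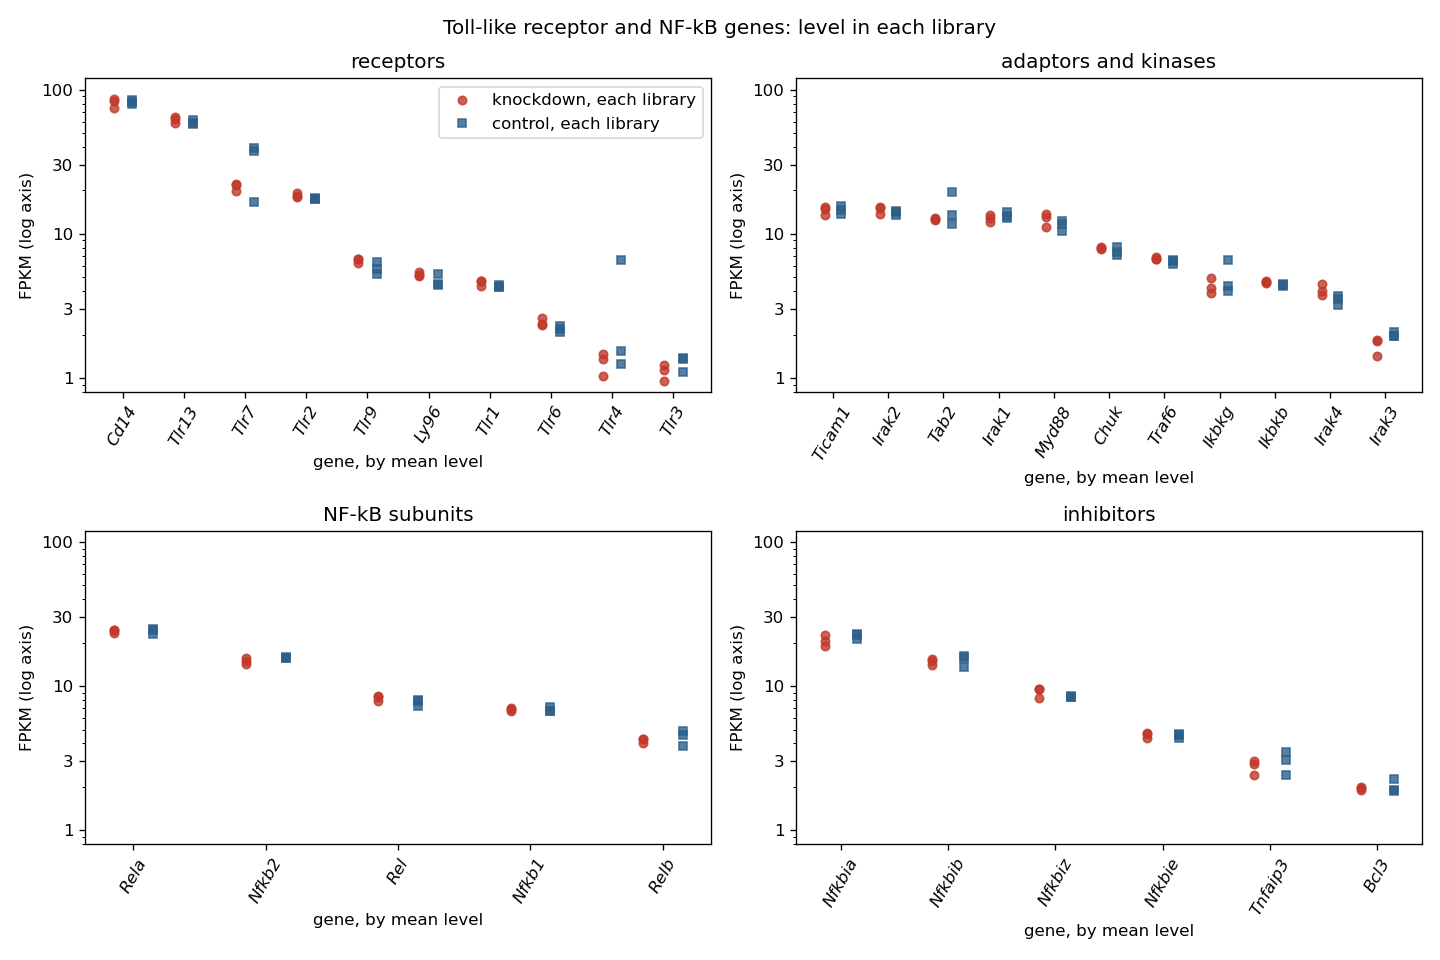
Level of each of the 32 genes in each library, in FPKM on a log axis, in 4 panels by role, with knockdown libraries (circles) left of control libraries (squares). Cd14 and Tlr13 were highest and Tlr3 lowest, and the control libraries of Tlr7, Tlr4, Tab2 and Ikbkg lie far apart.

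The targeted gene Gch1 was at 3.20, 2.93 and 3.43 FPKM in the knockdown libraries and 6.89, 7.22 and 7.23 FPKM in the controls, in the direction of the labels (log2 fold change -0.96, SE 0.06, limma BH adjusted p = 0.00542). With the values taken as FPKM, the estimated depth was 6.32 to 7.61 Gb (gigabases) of aligned sequence per knockdown library and 5.25 to 5.58 Gb per control library. Depth thus moved with the groups, and its part in any difference was not tested. Of 15 markers of microglia and macrophages 12 had a row, and they summed to 1147 to 1183 FPKM in knockdown libraries and 1180 to 1193 FPKM in controls. Cd68 (457 FPKM in knockdown cells, 486 in control cells) and Tyrobp (259 and 265 FPKM in the same order) led that sum, which hides scatter in other markers. In Cd68 and Trem2 every knockdown library lay below every control, as in 8.36% of all genes tested, and the groups of the other microglial markers overlapped. Fcgr3 was at 156, 155 and 131 FPKM in knockdown libraries and 124, 122 and 155 FPKM in controls. Itgam was at 19.5, 7.1 and 23.0 FPKM in knockdown libraries and 19.7, 31.1 and 7.22 FPKM in controls. Cx3cr1 was at 0.43, 0.48 and 0.54 FPKM in knockdown libraries and 0.60, 0.30 and 3.16 FPKM in controls. The homeostatic microglial markers P2ry12, Sall1 and Fcrls had no value here, and Tmem119 was at 0.599 FPKM in knockdown and 0.567 FPKM in control cells. Markers of other cell types had a row for 6 of 31 genes, none of them neuronal, and summed to 57.6 to 61.5 FPKM in knockdown libraries and 58.4 to 61.6 FPKM in controls. Most of that sum came from Aldoc (25.6 FPKM in knockdown cells, 27.0 in control cells) and Flt1 (22.1 and 22.3 FPKM in the same order). In bulk RNA, fewer cells that express a gene and less of its RNA per cell cannot be told apart.

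Among the receptors, Cd14 and the nucleic acid sensors Tlr13 and Tlr7 were far more abundant per transcript length than Tlr4 and Tlr3. CD14 is the surface protein that hands bacterial lipopolysaccharide to TLR4 and also serves other receptors. Cd14 (chromosome 18) averaged 81.8 ± 5.7 FPKM in knockdown cells and 82.4 ± 2.6 FPKM in control cells (SD, n = 3 each). Its log2 fold change, -0.01, had a 95% interval of -0.15 to 0.12. Tlr13, an endosomal sensor of bacterial ribosomal RNA in mouse, was at 64.6, 58.6 and 62.5 FPKM in knockdown libraries and 59.2, 61.9 and 58.1 FPKM in controls. The groups of both genes overlapped, and over the 6 libraries the range of Cd14 lay above that of Tlr13. Tlr2, which recognises bacterial lipoproteins at the surface, came next among the steadily measured receptors. Tlr2 was at 18.04, 18.3 and 19.3 FPKM in knockdown libraries and 17.4, 17.5 and 17.7 FPKM in controls (log2 0.07, SE 0.04, limma BH adjusted p = 0.526). All 3 knockdown libraries lay above all controls, by less than the test's threshold required.

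TLR2 works as a pair with TLR1 or TLR6. Tlr1 averaged 4.60 ± 0.20 FPKM in knockdown cells and 4.34 ± 0.10 FPKM in control cells (SD, n = 3 each). Tlr6 was at 2.59, 2.38 and 2.35 FPKM in knockdown libraries and 2.17, 2.08 and 2.29 FPKM in controls (log2 0.11, SE 0.06, limma BH adjusted p = 0.517). For Tlr6 the knockdown libraries again lay above all controls, and the groups of Tlr1 overlapped. Both partners were thus well below Tlr2 in level, and their ranges over the 6 libraries did not meet. Tlr1 and Tlr6 lie side by side on chromosome 5 and are close paralogs, so reads may have been shared between them and the split of their levels is uncertain.

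Of the endosomal receptors, Tlr9, the sensor of unmethylated CpG DNA, was at 6.66, 6.27 and 6.68 FPKM in knockdown libraries and 5.24, 5.70 and 6.41 FPKM in controls. The highest control lay inside the knockdown range (log2 0.15, SE 0.07, limma BH adjusted p = 0.479). Tlr3, which senses viral RNA and signals through TRIF alone, was the weakest member, at 1.10 ± 0.13 FPKM in knockdown cells and 1.28 ± 0.15 FPKM in control cells (SD, n = 3 each). Ly96 encodes MD-2, the part of the TLR4 complex that binds lipopolysaccharide. It averaged 5.25 ± 0.19 FPKM in knockdown cells and 4.72 ± 0.47 FPKM in control cells, with overlapping groups. Ly96 did not differ from its neighbours Tlr9 and Tlr1 beyond the spread of the 6 libraries, nor did Tlr4 from Tlr6 or Tlr3, or Tlr7 from Tlr2.

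Tlr7 and Tlr4 had the widest intervals, and in both control library 2 stood apart from the other controls. Tlr7 (ENSMUSG00000044583), on the minus strand of GRCm38 chromosome X from 167304929 to 167330558, encodes an endosomal sensor of single-stranded RNA. It was at 21.9, 19.8 and 22.0 FPKM in knockdown libraries and 39.5, 16.6 and 37.5 FPKM in controls. The knockdown libraries sat together, between control library 2 below them and control libraries 1 and 3 above them. Over all 6 libraries its log2 fold change, -0.44, had an SE of 0.30 and a limma BH adjusted p of 0.595. Without control library 2 it was -0.83 (SE 0.06, limma BH adjusted p = 0.0188), past the threshold, in a fit that called 0.148% of 12174 genes. The call thus rests on whether 1 control library is counted, and over the other alternatives tried Tlr7 did not pass. The highest control was 2.38 times the lowest, a ratio that 1.62% of all genes reached among the controls.

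Tlr4 (ENSMUSG00000039005), on the plus strand of chromosome 4 from 66827584 to 66930284, encodes the lipopolysaccharide receptor itself. It was at 1.36, 1.03 and 1.45 FPKM in knockdown libraries and 1.54, 6.60 and 1.24 FPKM in controls. Control library 2 lay above the other 5 libraries, which were all between 1.03 and 1.54 FPKM. Over the 6 libraries its log2 fold change, -0.63, had an SE of 0.43 and a limma BH adjusted p of 0.600. Without control library 2 it was -0.07, with an SE of 0.11 and a limma BH adjusted p of 0.806. Its ratio of highest to lowest control, 5.32, was reached by 0.352% of all genes.

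A pair of genes among the adaptors and kinases had the same kind of split. Tab2, the ubiquitin-binding partner of the kinase TAK1, was at 12.6, 12.5 and 12.9 FPKM in knockdown libraries and 19.6, 13.6 and 11.7 FPKM in controls. Here control library 1 was the high one, and the log2 fold change was -0.19 with it and 0.01 without it. Ikbkg, which encodes the regulatory IKK subunit NEMO, was at 4.18, 3.90 and 4.91 FPKM in knockdown libraries and 4.33, 6.56 and 4.03 FPKM in controls, with control library 2 high (log2 -0.14 with it and 0.04 without it). Ikbkg overlaps G6pdx on the opposite strand, itself at 73.4 FPKM in knockdown and 71.7 FPKM in control cells, and the strand setting of the counting is not given in the sources used here. In all, 4 of the 32 genes (12.5%) had controls that differed by more than 1.5-fold, against 8.88% of all genes. Among the knockdown libraries 0 of the 32 did, against 7.23% of all genes. These 4 genes were singled out after their values were seen.

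**Figure D2:**
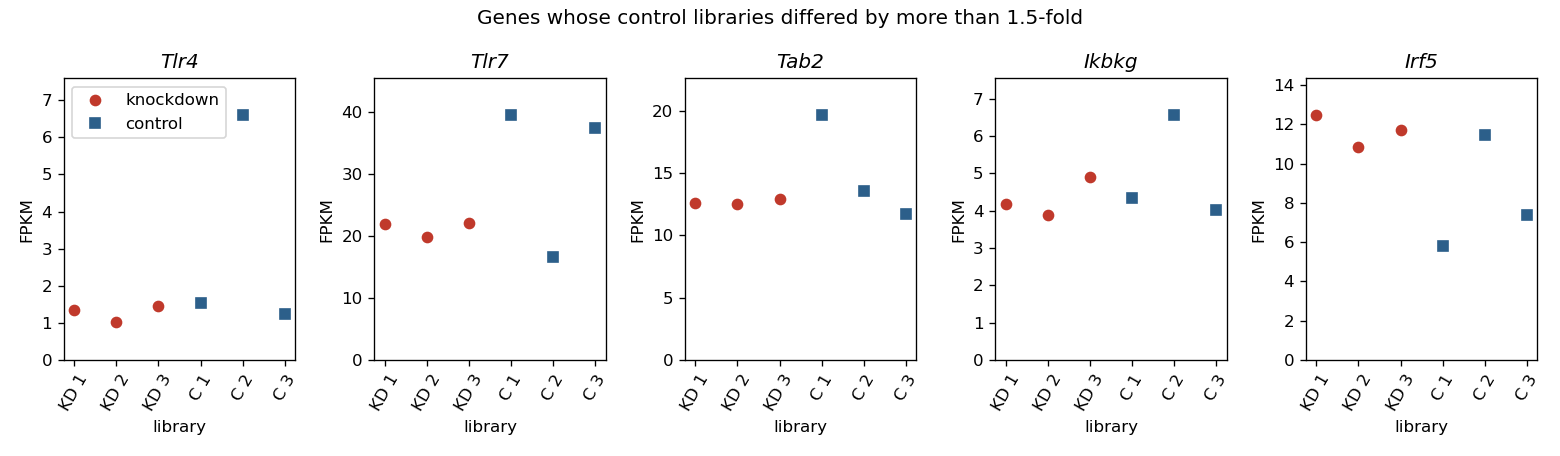
FPKM in each library for Tlr4, Tlr7, Tab2, Ikbkg and Irf5, with knockdown libraries (KD, circles) left of control libraries (C, squares) and axes from 0. Control library 2 is the odd control in Tlr4, Tlr7 and Ikbkg, control library 1 in Tab2, and the controls of Irf5 span 5.80 to 11.5 FPKM.

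The remaining adaptors and kinases fell into an upper group averaging 12 to 15 FPKM and a lower group averaging 8 FPKM or less. Ticam1, which encodes TRIF, averaged 14.6 ± 0.98 FPKM in knockdown and 14.7 ± 0.98 FPKM in control cells (SD, n = 3 each). For Ticam1 the log2 fold change, -0.01, had a 95% interval of -0.17 to 0.15. Myd88, the adaptor of nearly all Toll-like receptors, averaged 12.6 ± 1.3 FPKM in knockdown and 11.5 ± 0.9 FPKM in control cells (log2 0.12, SE 0.09, limma BH adjusted p = 0.616). Neighbours in the upper group, Ticam1, Irak2, Tab2, Irak1 and Myd88, did not differ in level beyond their spread. Irak1 and Irak2, the kinases that carry the signal from MyD88 to TRAF6, had log2 fold changes of -0.06 and 0.06.

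The lowest p of the 32 genes was that of Irak4, the kinase that acts first after MyD88. Irak4 (ENSMUSG00000059883), on the plus strand of chromosome 15 from 94543643 to 94581815, was at 4.46, 4.0 and 3.75 FPKM in knockdown libraries and 3.53, 3.70 and 3.23 FPKM in controls. All knockdown libraries lay above all controls, with 3.75 FPKM against 3.70 FPKM at the boundary. The difference was 0.18 on the log2 scale (SE 0.07, limma unadjusted p = 0.0467, BH adjusted p = 0.435). Irak3, the IRAK family member known to restrain the pathway in macrophages, was at 1.83, 1.41 and 1.81 FPKM in knockdown libraries and 2.08, 1.96 and 1.95 FPKM in controls. All knockdown libraries of Irak3 lay below all controls (log2 -0.16, SE 0.08, limma BH adjusted p = 0.486). Irak4, Irak3 and Myd88 overlap an expressed gene on the opposite strand (Twf1, Tmbim4 and Acaa1a), so some of their reads may belong to those genes. On the same strand, Irak2 overlaps Gm43912 (4.72 FPKM in knockdown and 5.44 FPKM in control cells). Nfkb1 likewise overlaps Gm43430 (1.66 and 1.52 FPKM in the same order), so reads may be shared there too.

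Traf6 and Ikbkb also had separate groups, by small amounts. Traf6 was at 6.86, 6.65 and 6.72 FPKM in knockdown libraries and 6.15, 6.63 and 6.53 FPKM in controls (log2 0.06, SE 0.05, limma BH adjusted p = 0.659). Ikbkb, which encodes the kinase IKK-beta of the canonical route, was at 4.69, 4.64 and 4.53 FPKM in knockdown libraries and 4.51, 4.35 and 4.41 FPKM in controls (log2 0.05, SE 0.05, limma BH adjusted p = 0.700). In both genes the lowest knockdown library exceeded the highest control by little. Chuk, which encodes IKK-alpha, averaged 7.98 ± 0.16 FPKM in knockdown cells and 7.55 ± 0.49 FPKM in control cells, with overlapping groups. Of the 11 adaptors and kinases 6 were above and 5 below control.

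The NF-kB subunits kept a fixed order of level, with Rela first, then Nfkb2, Rel, Nfkb1 and Relb. The ranges of neighbours over the 6 libraries did not meet, though the lowest Rel value (7.32 FPKM) was close to the highest of Nfkb1 (7.18 FPKM). Rela, the main transactivating subunit of the canonical route, was at 24.7, 23.4 and 24.7 FPKM in knockdown libraries and 24.8, 22.9 and 24.4 FPKM in controls. Its log2 fold change of 0.02 had a 95% interval of -0.09 to 0.12. Nfkb1, the precursor gene of its usual partner, averaged 6.92 ± 0.16 FPKM in knockdown cells and 6.89 ± 0.26 FPKM in control cells (SD, n = 3 each). Both genes showed overlapping groups. Rel, the lymphoid and myeloid subunit c-Rel, averaged 8.30 ± 0.34 FPKM in knockdown cells and 7.74 ± 0.38 FPKM in control cells.

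Nfkb2 and Relb form the dimer of the non-canonical route. Nfkb2 was at 14.3, 15.05 and 15.6 FPKM in knockdown libraries and 15.7, 15.8 and 15.95 FPKM in controls (log2 -0.07, SE 0.04, limma BH adjusted p = 0.555). It was the only 1 of the 5 subunits whose groups did not overlap, with knockdown below control, as in 8.36% of all genes tested. Relb averaged 4.20 ± 0.17 FPKM in knockdown cells and 4.44 ± 0.56 FPKM in control cells. The summed level of the 5 subunits was 58.7 ± 0.81 FPKM in knockdown cells and 58.9 ± 0.71 FPKM in control cells (SD, n = 3 each).

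The inhibitors were led by Nfkbia, the gene of IkB-alpha, the inhibitor that IKK destroys first and that NF-kB restores in a feedback loop. Nfkbia (ENSMUSG00000021025), on the minus strand of chromosome 12 from 55489410 to 55492647, was at 19.0, 20.6 and 22.8 FPKM in knockdown libraries and 21.4, 22.8 and 23.1 FPKM in controls. The highest knockdown library lay inside the control range (log2 -0.11, SE 0.07, limma BH adjusted p = 0.572). Nfkbib and Nfkbie encode the related IkB-beta and IkB-epsilon. Nfkbib averaged 14.8 ± 0.72 FPKM in knockdown cells and 15.1 ± 1.3 FPKM in control cells, and Nfkbie 4.59 ± 0.20 and 4.53 ± 0.13 FPKM in the same order (SD, n = 3 each). Nfkbib overlaps Sirt2 on the opposite strand.

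The atypical IkB proteins act in the nucleus and can help as well as block transcription. Nfkbiz, which many Toll-like receptor responses need, was at 9.56, 8.24 and 9.52 FPKM in knockdown libraries and 8.49, 8.44 and 8.39 FPKM in controls. The knockdown libraries lay on both sides of the tight controls (log2 0.10, SE 0.06, limma BH adjusted p = 0.586). Bcl3 averaged 1.95 ± 0.05 FPKM in knockdown cells and 2.02 ± 0.23 FPKM in control cells. Tnfaip3, the gene of the ubiquitin-editing enzyme A20 that switches the pathway off, was at 3.02, 2.41 and 2.90 FPKM in knockdown libraries and 2.43, 3.49 and 3.08 FPKM in controls. The groups were separate in 0 of the 6 inhibitors, against 18.4% of all genes tested, so a count of 0 in 6 lies near that background. In the order Nfkbia, Nfkbib, Nfkbiz, Nfkbie, Tnfaip3 and Bcl3, the ranges of neighbours over the 6 libraries did not meet.

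**Figure D3:**
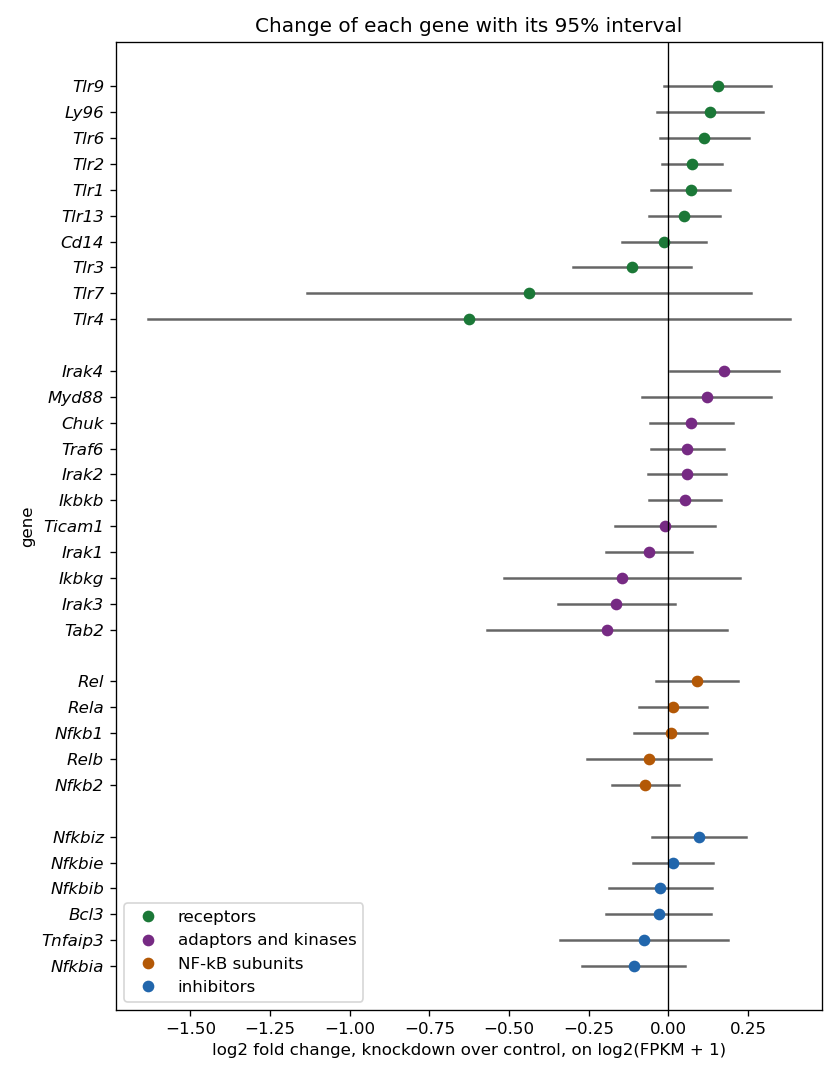
Log2 fold change of each gene, knockdown over control on log2(FPKM + 1), with its 95% interval from limma, grouped by role. Intervals reach or cross 0 for all genes but Irak4, whose lower end lies just above 0, and those of Tlr4 and Tlr7 are the widest.

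Set side by side, the 4 roles had median log2 fold changes of 0.06 for receptors, 0.05 for adaptors and kinases, 0.01 for subunits and -0.03 for inhibitors, beside 0.01 over all genes tested. These are descriptions of the genes listed, with no test. Without control library 2 the inhibitor median was 0.0161 and the subunit median -0.0094, both of opposite sign to the values over all 6 libraries. The subunit median was also below 0 without control library 1 (-0.0034) or knockdown library 3 (-0.0058), and it was 0.027 without control library 3. The adaptor and kinase median stayed above 0 with each library left out, at 0.0319 to 0.0498. The summed levels, which the most abundant genes dominate, were 205 ± 3.9 FPKM in knockdown and 212 ± 8.8 FPKM in control cells for receptors. They were 96.8 ± 2.6 FPKM in knockdown and 97.5 ± 4.35 FPKM in control cells for adaptors and kinases, and 54.0 ± 2.6 and 55.5 ± 1.1 FPKM in the same order for inhibitors (SD, n = 3 each). The mean receptor sum was lower in knockdown cells although the receptor median was above 0. The sums overlapped, with control library 2 at 203 FPKM, inside the knockdown range of 202 to 209 FPKM. Tlr7, one of the most abundant receptors, averaged 21.3 FPKM in knockdown cells and 31.2 FPKM in control cells, with control library 2 (16.6 FPKM) below all knockdown libraries.

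Several inhibitors and subunits of NF-kB are known targets of NF-kB itself, so the promoters were searched for the letters it binds. RefSeq promoter windows (build GRCm38.p6, from 250 bases before to 50 bases after the start) were at hand for 24 of the 32 genes. The kappaB consensus was found on either strand in 8 of the 24, in 4 of 5 inhibitors (Nfkbia, Nfkbie, Tnfaip3 and Bcl3), 2 of 3 subunits (Nfkb2 and Rel), 2 of 6 receptors (Tlr2 and Tlr3) and 0 of 10 adaptors and kinases. Of all genes with a window, 5.14% held it. A narrower form (GGG, any 2 bases, then TTTCC), which can overlap it and was also searched on both strands, was found in 5 of the 24 (Nfkbia, Tnfaip3, Nfkb2, Rel and Tlr3), against 1.89% of all genes. The windows below are shown because they hold matches in the main feedback inhibitors, the subunits and the most abundant surface Toll-like receptor, each from 5′ to 3′ in the direction of transcription with matches to either motif in capitals.
Nfkbia, chr12:55492598-55492897, minus strand: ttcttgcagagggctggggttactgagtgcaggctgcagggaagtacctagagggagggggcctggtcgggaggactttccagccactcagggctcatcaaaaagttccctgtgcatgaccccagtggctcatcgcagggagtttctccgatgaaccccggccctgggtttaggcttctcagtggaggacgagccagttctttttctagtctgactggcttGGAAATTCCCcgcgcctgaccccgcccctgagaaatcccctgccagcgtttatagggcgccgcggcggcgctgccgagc
Tnfaip3, chr10:19015361-19015660, minus strand: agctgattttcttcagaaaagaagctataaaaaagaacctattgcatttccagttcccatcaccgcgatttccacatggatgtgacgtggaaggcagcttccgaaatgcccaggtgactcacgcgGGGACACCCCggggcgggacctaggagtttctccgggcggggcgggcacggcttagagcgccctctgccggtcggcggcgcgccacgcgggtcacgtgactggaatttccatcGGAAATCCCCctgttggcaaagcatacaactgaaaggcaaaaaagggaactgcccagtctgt
Nfkb2, chr19:46304487-46304786, plus strand: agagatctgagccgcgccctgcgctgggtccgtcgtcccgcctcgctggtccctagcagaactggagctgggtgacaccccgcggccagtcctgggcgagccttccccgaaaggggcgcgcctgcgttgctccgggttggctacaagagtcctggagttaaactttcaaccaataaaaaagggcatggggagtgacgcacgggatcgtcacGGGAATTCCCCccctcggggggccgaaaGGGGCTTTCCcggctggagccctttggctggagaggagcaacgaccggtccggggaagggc
Rel, chr11:23770920-23771219, minus strand: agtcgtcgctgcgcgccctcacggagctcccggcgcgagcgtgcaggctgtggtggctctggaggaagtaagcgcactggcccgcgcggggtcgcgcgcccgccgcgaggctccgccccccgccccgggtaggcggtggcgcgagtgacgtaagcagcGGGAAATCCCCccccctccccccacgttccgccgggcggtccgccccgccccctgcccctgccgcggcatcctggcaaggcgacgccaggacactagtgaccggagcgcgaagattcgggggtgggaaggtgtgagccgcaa
Tlr2, chr3:83841559-83841858, minus strand: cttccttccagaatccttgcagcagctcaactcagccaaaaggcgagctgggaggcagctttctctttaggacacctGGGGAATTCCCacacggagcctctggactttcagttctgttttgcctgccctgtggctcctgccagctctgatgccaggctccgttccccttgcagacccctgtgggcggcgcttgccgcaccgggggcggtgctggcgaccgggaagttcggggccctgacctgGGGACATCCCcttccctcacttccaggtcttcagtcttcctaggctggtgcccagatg
The match in Nfkbia begins 29 bases before the start, those in Tnfaip3 125 and 12 bases before it, those in Nfkb2 39 and 11 bases, that in Rel 92 bases and those in Tlr2 173 and 8 bases before it. Overlapping matches were merged, which gave runs of 11 capitals in Nfkb2, Rel and Tlr2. Other annotated starts of Nfkb2 have windows with matches of their own. A match describes the letters of the window and does not show binding in these cells.

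The 8 genes with a kappaB match had a median log2 difference of -0.05, with 3 above and 5 below control. The 16 genes with a window and no match had a median of 0.05, with 10 above and 6 below control. Neither set held a called gene, and the 2 medians were not tested against each other. The 8 genes with a match ranged from -0.12 for Tlr3 to 0.09 for Rel. Nfkbia, Tnfaip3, Nfkb2, Bcl3 and Nfkbie, classic NF-kB targets among them, ranged from -0.11 for Nfkbia to 0.01 for Nfkbie.

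Genes that work beside the 32 were taken from 5 further lists, chosen with earlier results of these data known. None of their tested genes passed. Among 7 further receptor genes, 6 were above and 1 below control, led by Ly86, which encodes MD-1, the partner of the receptor CD180. Ly86 was at 8.38, 8.38 and 8.83 FPKM in knockdown libraries and 6.60, 7.02 and 6.88 FPKM in controls, with every knockdown library above every control (log2 0.28, SE 0.05, limma BH adjusted p = 0.181). Its partner Cd180 was at a log2 fold change of 0.10, the endosomal receptor chaperone Unc93b1 at 0.07 and the folding chaperone Hsp90b1 at 0.08.

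Among 22 further adaptors and kinases 8 were above and 14 below control. Ikbke, an IKK-related kinase of the interferon branch, averaged 5.34 ± 0.26 FPKM in knockdown cells and 6.54 ± 0.22 FPKM in control cells (log2 -0.25, SE 0.05, limma BH adjusted p = 0.261), with separate groups. Its relative Tbk1 was at a log2 fold change of -0.09. Map3k8, the kinase TPL2 that links IKK to ERK, averaged 4.09 ± 0.25 FPKM in knockdown cells and 3.25 ± 0.18 FPKM in control cells (log2 0.26, SE 0.06, limma BH adjusted p = 0.287). Ripk1, a kinase of death and survival signalling, was at 8.998, 8.34 and 9.02 FPKM in knockdown libraries and 11.6, 12.1 and 8.75 FPKM in controls, with control library 3 among the knockdown values (log2 -0.26, limma BH adjusted p = 0.442).

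Of 17 further regulators of NF-kB, 8 were above and 9 below control, with Pdlim2, a ubiquitin ligase for RelA in mouse, at -0.25 on the log2 scale (SE 0.07, limma BH adjusted p = 0.334). The others named by p were Tnip1 at -0.10, Itch at 0.09 and Dok3 at -0.08. Among the 5 interferon regulatory factors, Irf5, which MyD88 activates, was at 12.5, 10.8 and 11.7 FPKM in knockdown libraries and 5.80, 11.5 and 7.39 FPKM in controls. Control library 2 again stood apart from controls 1 and 3, here among the knockdown values. For Irf5 the log2 value was 0.50 (SE 0.20, limma BH adjusted p = 0.414) over the 6 libraries and 0.75 (SE 0.10, limma BH adjusted p = 0.129) without control library 2. Irf7 was lower in every knockdown library than in every control (log2 -0.21, SE 0.07, limma BH adjusted p = 0.356), while Irf3 was at 0.06 and Irf1 at 0.12.

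Known NF-kB target genes had a median log2 difference of -0.09, farther from 0 than that of the 4 roles and the 4 other lists. Of 40 listed target genes 35 had a row, and Il1b, Il6, Il12b, Cxcl16 and Vcam1 had no value here. Of the 35 tested, 26 (74.3%) were below control, against 47.0% of all genes. At an unadjusted p under 0.05 with knockdown lower stood 12 of the 35 (34.3%), against 4.82% of all genes, and with knockdown higher 1, Nos2. The count of 12 became 6 without control library 2, 7 without control library 1 and 7 without knockdown library 1. In 13 of them (37.1%) every knockdown library lay below every control, against 8.36% of all genes. None passed the adjusted threshold. The list shares its chemokines and cytokines with lists already known to lie below control in these data, so it is no independent evidence of the direction.

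The target gene with the lowest p was Ccnd1, cyclin D1, which many other factors also control. Ccnd1 was at 38.1, 37.7 and 38.2 FPKM in knockdown libraries and 46.1, 45.3 and 45.9 FPKM in controls (log2 -0.26, SE 0.03, limma BH adjusted p = 0.0718). It passed in 1 alternative, with a trend over GC content and transcript length removed (limma BH adjusted p = 0.0403). Csf1, the macrophage growth factor, was at 32.3, 33.8 and 33.7 FPKM in knockdown libraries and 44.1, 41.6 and 39.6 FPKM in controls (log2 -0.32, SE 0.05, limma BH adjusted p = 0.156). In both genes the groups were well separated. Ccl2, the chemokine that draws monocytes, was at a log2 fold change of -0.26 and Plau, the plasminogen activator urokinase, at -0.23, with limma BH adjusted p of 0.261 and 0.262.

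**Figure D4:**
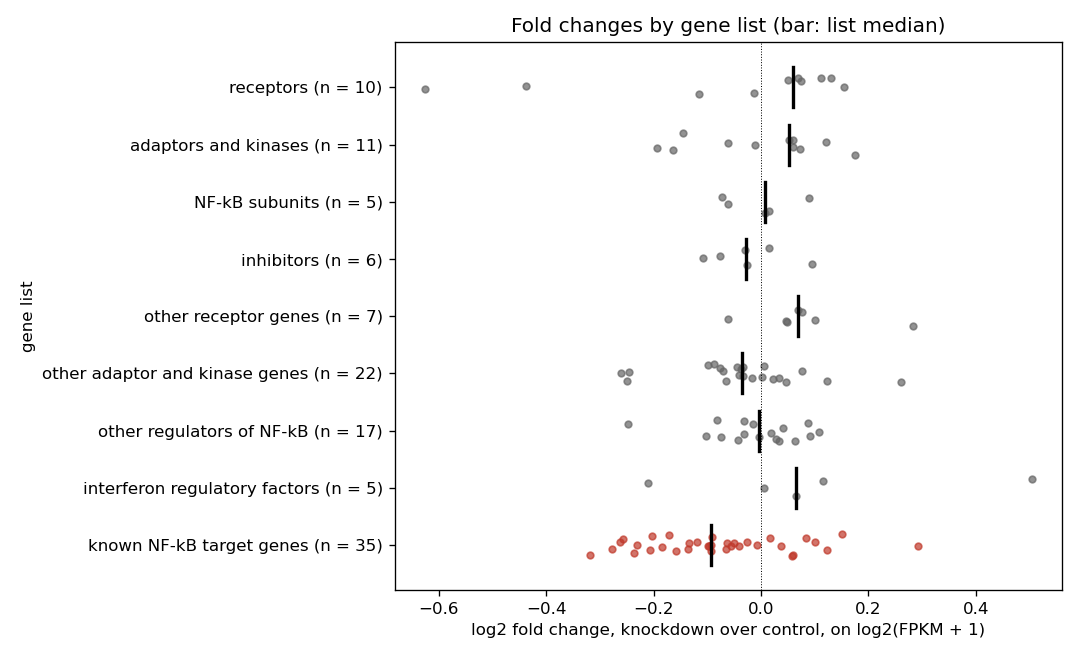
Log2 fold change, knockdown over control on log2(FPKM + 1), of every tested gene in the 4 roles and in 5 further lists, with a bar at each list's median. The known NF-kB target genes (n = 35) centre at -0.09, while the medians of the 4 roles lie between -0.03 and 0.06.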

How the data were processed

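RNA of 3 knockdown and 3 control samples was depleted of ribosomal RNA and prepared with a stranded kit, per the labels' protocols. The deposited table holds 1 value per gene and library, computed by the authors and taken here as FPKM. Its header states no unit. Scaling by length and depth was inferred from the values of genes with 1 annotated transcript. The value times the transcript length fell within 0.1 of a whole step for 65.0% to 68.0% of the 400 lowest values per library. Other units scaled by length and depth would also give whole steps, so this does not single out FPKM. For a step fixed beforehand, 20% would do so by chance. The step used was chosen to fit the same 400 values, so its own chance level is not known. That step also gave the estimated depth, which assumes FPKM. HISAT2, StringTie and edgeR, with no role or version, and the human build hg38 are named per the submitters' processing notes, although the identifiers are mouse genes. The table held no gene whose group means were both below 0.501 FPKM.

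Of 12327 identifiers 12300 matched GENCODE M21. Genes reaching 0.5 FPKM in 3 or more of the 6 libraries entered limma 3.58.1 (R 4.3.3) on log2(FPKM + 1) with a mean-variance trend, and all 32 member genes passed that filter. Named genes are Gch1, all 32 members and up to 4 genes of lowest p in each further list. The members and lists were chosen with earlier results of these data known. Alternatives were a replicate block, each library left out, other filters, pseudocounts, scalings and moderation, and removal of a loess trend (span 0.3) over transcript GC content and length. Motifs were searched with Python 3.11.15. Protein sequences were not used here.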

Additional observations from a re-analysis of the deposited data

How the results depend on the processing

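The members and the other named genes, leaving out Gch1, were set against their reported values 815 times. None of these genes was called as reported, so none could lose the threshold. It was gained 2 times, by Tlr7 without control library 2 and by Ccnd1 with the GC and length trend removed (limma BH adjusted p = 0.0403, and 0.0403 to 0.365 across alternatives for Ccnd1). For Tlr7 the adjusted p across alternatives was 0.0188 to 0.833. Both gained calls kept the sign of the reported value. In 10 of the 32 genes the uncalled sign differed in at least 1 setting, and in 22 it did not. With the replicate number of the titles as a block, 0 of all genes were called by limma (1330 at an unadjusted p under 0.05) and Gch1, at -0.96, lost the threshold with a BH adjusted p of 0.0604. Same-numbered libraries deviated together at correlations of 0.095, 0.059 and 0.094 across genes, each number best with itself. This hint comes from the values, and the labels state no pairing. Members at an unadjusted p under 0.05 numbered 1 as reported, 0 among the 19 members with a mean of at least 5 FPKM, and 2 with quantile normalization or after removing the GC and length trend. After removing that trend the medians were 0.032 for receptors, 0.0267 for adaptors and kinases, -0.0089 for subunits and -0.0017 for inhibitors. Role medians changed sign 6 times in 64 comparisons, and the subunit median was also -0.001 with median-of-ratios scaling. With each library left out, all genes called ranged from 6 (without knockdown library 2 or 3) to 18 (without control library 2), members called from 0 to 1, members at an unadjusted p under 0.05 from 0 to 3, the receptor median from 0.0449 to 0.069, the adaptor and kinase median from 0.0319 to 0.0498, the subunit median from -0.0094 to 0.027 and the inhibitor median from -0.0388 to 0.0161. NF-kB target genes lower at an unadjusted p under 0.05, recomputed as an alternative added after seeing the data, then ranged from 6 (without control library 2) to 12, and were 7 without control library 1 or knockdown library 1, while 25 to 27 were below control. The cause of these shifts was not tested. Levels near 1 FPKM rest on fewer reads than higher levels in genes of similar length.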
